A study of Mus musculus with 27 samples.

Results

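Treg precursors of the mouse thymus were set against Foxp3- thymocytes with high CD24 (CD24hi), 3 arrays a side out of 27 in the series, across 18194 genes. The members were the samples whose source label names thymic Treg precursor cells and those whose label names the Foxp3-GFP- CD24hi thymus fraction. All 27 samples came from Balb/c mice and were sorted CD4 T cells in 9 groups of 3: the precursors, thymocytes of 3 CD24 levels (high, intermediate, low) with or without Foxp3, and lymph node cells that were either Tregs or naive. Per the series title, precursors are CD4 single-positive, Foxp3GFP- and CD25+, whereas the Foxp3- comparison cells are CD25-. Both compared groups therefore share the Foxp3-GFP reporter background and the absence of its signal, and differ in CD25. The comparison asks how Foxp3- thymocytes with CD25 on the surface differ from Foxp3- CD24hi thymocytes without it. Only the latter carry a CD24 label, so a difference in CD25 and one in CD24 or maturity cannot be told apart. The labels give no age, sex or treatment, no CD24 level for the precursors, and no statement that the replicates were separate animals or whether animals were pooled. The CD24hi label also carries the word Treg although the cells are Foxp3-, and the group was used as conventional cells, as in the series design.

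Regulatory T cells arise in the thymus from CD4 single-positive cells that receive strong signals through the T cell receptor. In the textbook scheme such signals raise CD25, the alpha chain of the IL-2 receptor, and IL-2 acting through STAT5 then allows Foxp3, the transcription factor that defines Tregs, to be expressed. CD25+ Foxp3- cells are one population described as holding the precursors of Tregs. CD24 is a surface protein that is high on newly selected thymocytes and declines as they mature. Other T cells in the thymus can also carry CD25 or innate-like programmes, among them natural killer T cells and gamma delta T cells.

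Values are log2 intensities of Affymetrix 3' arrays, and a gene was represented by its brightest probe set with a single gene symbol. Differences are precursors minus Foxp3- CD24hi cells, ± limma's standard error, and each group has n = 3. A gene rose or fell where its adjusted p was under 0.05 over all 18194 genes. Linear intensities over the 27 arrays ran from 3.55 to 24083, and the medians of the 6 compared arrays from 30.3 to 31.4. Arrays correlated at 0.987 to 0.995 within the groups and at 0.978 to 0.988 between them. Precision is limited by the number of arrays, and the median standard error of a difference was 0.15. In sorted samples, fewer cells of a type and less RNA per cell cannot be told apart.

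One array stood apart before any result. Replicate 3 of Foxp3- CD24hi carried transcripts of liver, a tissue that neither sort was aimed at. On this array 56 genes lay at least 2 log2 units above each of the 26 other arrays, and 0 genes did so on any of the 5 other compared arrays. Cyp3a11, a liver cytochrome P450, read 10.70 there against 2.52 to 3.21 on the 26 others. Alb, which encodes serum albumin, read 11.65 there against 3.49 to 4.23, and Hpx, the haem carrier haemopexin, 9.97 against 3.39 to 3.98. Mgst1, a microsomal glutathione transferase, read 9.27 there against 2.76 to 4.10. Serpina1c (10.35) and Serpina1b (9.56) were as distinct, but these antitrypsin genes are near-identical copies whose probes may not separate them. Of 23 measured genes in a list of liver markers, 20 were highest on this array and 19 exceeded the others by 2 units. The mean of the list was 7.62 on this array and between 3.55 and 3.93 on the 26 other arrays. In the comparison 0 of the 56 genes passed, and 0 of the 91 genes that exceeded the other arrays by at least 1 unit. When replicate 1 or replicate 2 of Foxp3- CD24hi was left out, 18 or 17 of the 23 liver markers counted as lower in precursors. Results below were also computed without the liver-bearing array.

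**Figure D1:**
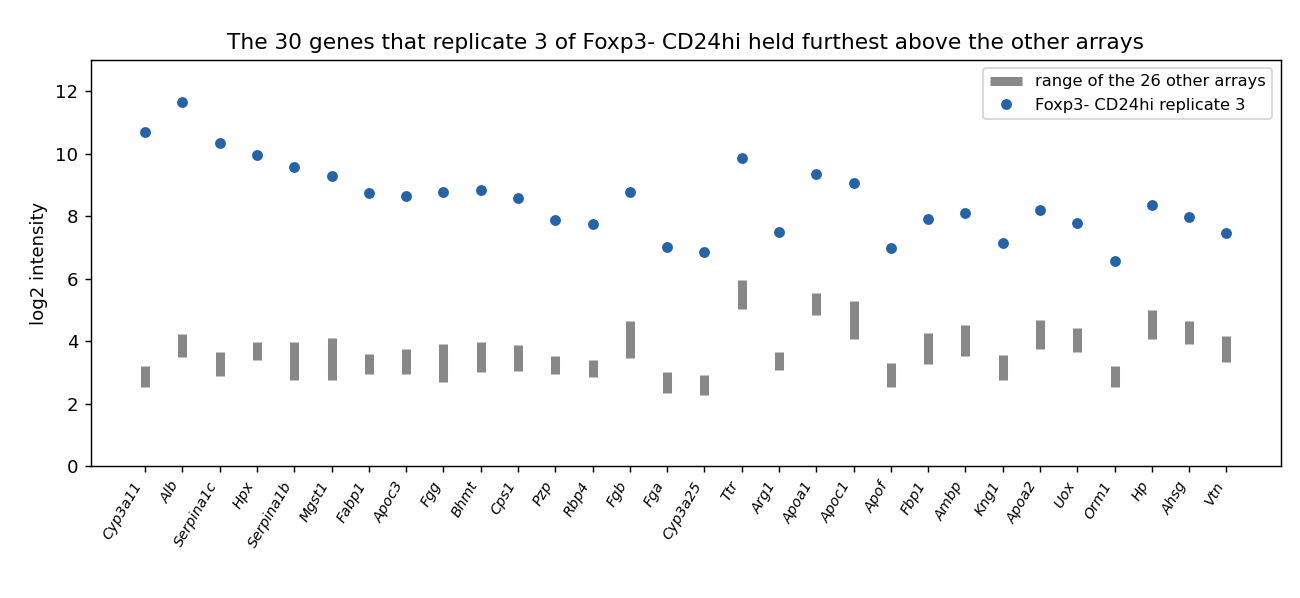
Log2 intensity of the 30 genes with the largest excess on replicate 3 of Foxp3- CD24hi. Points are that array and grey bars span the 26 other arrays; Alb stands at 11.65 against at most 4.23 elsewhere, and every point lies above its bar.

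Markers of the sorts followed the labels. Foxp3 read 4.14, 3.97 and 3.80 on precursor arrays 1 to 3 and 3.94, 4.16 and 3.31 on the Foxp3- CD24hi arrays, and the groups overlapped (difference 0.17 ± 0.17, adjusted p = 0.71). The 3 Foxp3+ CD24hi arrays read 9.96 to 10.19 for the same gene. Il2ra, which encodes CD25, read 7.93, 8.06 and 8.48 in precursors and 4.20, 4.66 and 4.41 in Foxp3- CD24hi cells. Its difference of 3.74 ± 0.20 describes the sort, which used CD25, and is no finding. Cd24a, the gene of CD24, read 11.50, 11.48 and 12.23 in precursors and 10.75, 10.84 and 11.21 in the other group. All precursor arrays were the higher ones, but the difference did not pass (0.81 ± 0.42, adjusted p = 0.317). It did in a fit with replicate number as a block (0.011). Cd4, which encodes the coreceptor both sorts used, lay between 8.60 and 9.00 in precursors and between 9.08 and 9.49 in Foxp3- CD24hi cells. It too passed with the block alone (-0.42 ± 0.16, adjusted p = 0.115 without it and 0.0217 with it).

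Across all genes, 1658 differed, which was 9.11% of those tested. Of these, 925 were higher in precursors (5.08%) and 733 lower (4.03%). The higher genes moved further. At least a 2-fold difference was reached by 341 of the higher genes and 87 of the lower ones, with extremes of 4.29 and -1.99 log2 units. The arrays of both groups did not overlap for 890 of the higher and 725 of the lower genes. Irrespective of the test, 10.9% of all genes had every precursor array above and 11.2% every precursor array below the Foxp3- CD24hi arrays. Same-numbered arrays of both groups deviated together, and the fit with the replicate block counted 2671 genes, 1425 higher and 1246 lower, among them all 1658. Without the liver-bearing array 775 genes were higher and 686 lower, and 733 and 607 of these were also among the genes called with all arrays. A fit of the compared groups alone counted 1001, 612 higher and 389 lower. List counts under these fits are to be read beside these totals.

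**Figure D2:**
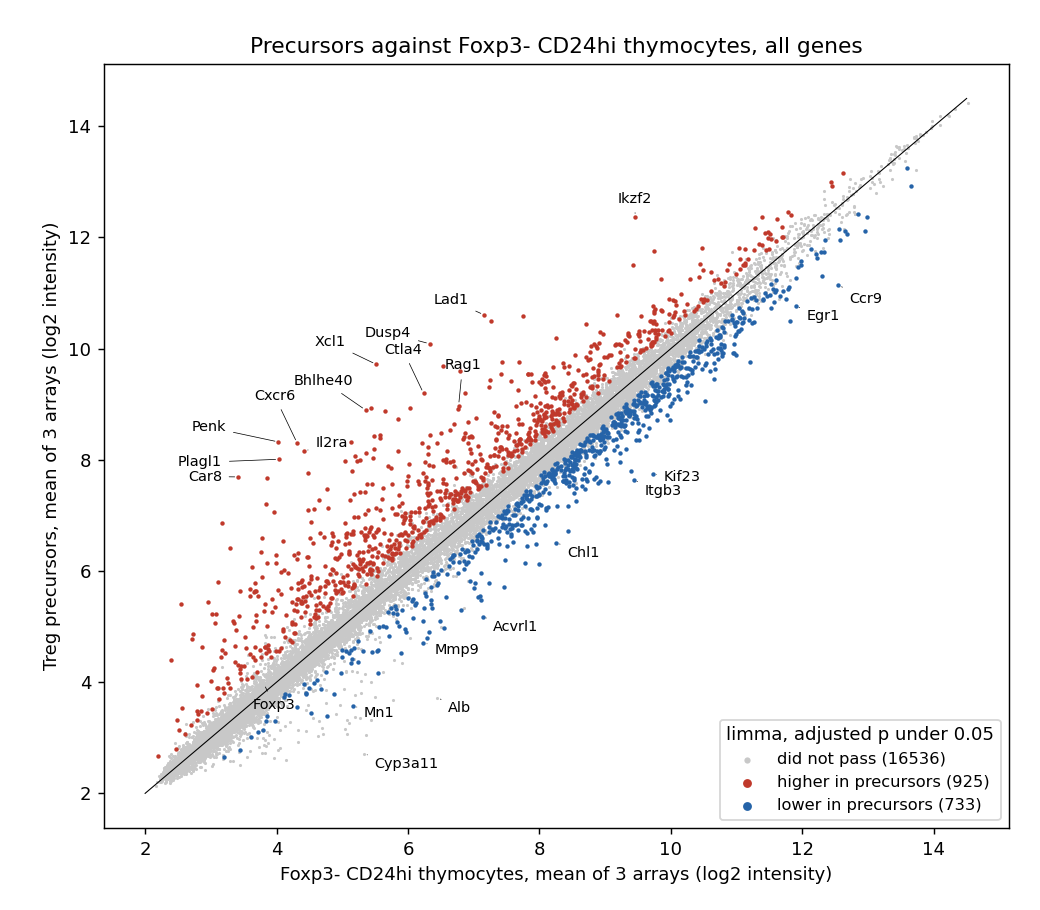
Mean log2 intensity of each of 18194 genes in Foxp3- CD24hi thymocytes (horizontal) and Treg precursors (vertical), 3 arrays each. Red points were higher (925) and blue points lower (733) in precursors at an adjusted p under 0.05; the red points reach further from the diagonal, and Alb and Cyp3a11, which did not pass, lie below it, with values above 10 on one Foxp3- CD24hi array.

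The largest rise was in Penk, which encodes the opioid precursor proenkephalin. It read 8.41, 8.43 and 8.12 in precursors and 4.23, 3.61 and 4.24 in Foxp3- CD24hi cells (4.29 ± 0.24, adjusted p = 7.48e-12). The spread within either group was small beside the distance between them. Car8, a carbonic anhydrase relative without enzyme activity, read 7.55, 7.52 and 8.01 against 3.22, 3.40 and 3.63 (4.28 ± 0.20, adjusted p = 7.25e-13). Its other probe sets were dim and differed by 0.28 and 0.35, so the rise rests on one probe set. Xcl1, a chemokine that attracts cross-presenting dendritic cells, read 8.87, 9.62 and 10.66 against 5.87, 5.48 and 5.20 (4.20 ± 0.46, adjusted p = 5.63e-07). It was the most variable of these among precursor arrays.

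Plagl1, an imprinted zinc finger transcription factor, read 8.09, 7.88 and 8.06 in precursors and 4.57, 3.23 and 4.32 in Foxp3- CD24hi cells (3.97 ± 0.23, adjusted p = 1.46e-11). Other probe sets for Plagl1, both dim, differed by -0.05 and 0.06. Dusp4, a phosphatase that acts on mitogen-activated protein kinases, read 9.51, 9.86 and 10.88 against 6.32, 6.21 and 6.46 (3.75 ± 0.33, adjusted p = 1.33e-08). Bhlhe40, a basic helix-loop-helix transcription factor of activated T cells, read 8.61, 9.11 and 8.96 against 5.13, 5.43 and 5.50 (3.54 ± 0.22, adjusted p = 4.18e-11). In each of these genes the lowest precursor array exceeded the highest Foxp3- CD24hi array by more than any spread within a group.

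Further rises of at least 3.28 log2 units were in Cxcr6 (3.99 ± 0.50), a chemokine receptor, Slc35d3 (3.82 ± 0.33), a member of the nucleotide sugar transporter family, and Sectm1a (3.68 ± 0.23). They were also in Niban1 (3.50 ± 0.19), Lad1 (3.45 ± 0.43), which encodes ladinin, Bcat1 (3.37 ± 0.21), a cytosolic branched-chain aminotransferase, and Cd83 (3.28 ± 0.20), a surface protein of activated lymphocytes and dendritic cells. Other probe sets of Bcat1 differed by less, 1.09 and 0.96. Lad1 read 10.07, 10.37 and 11.38 in precursors and 6.78, 6.85 and 7.84 in Foxp3- CD24hi cells. Replicate 3 was the highest array of Lad1 on both sides. Together with Il2ra and Il2rb these were the 15 largest rises, and each passed with any single array left out.

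**Figure D3:**
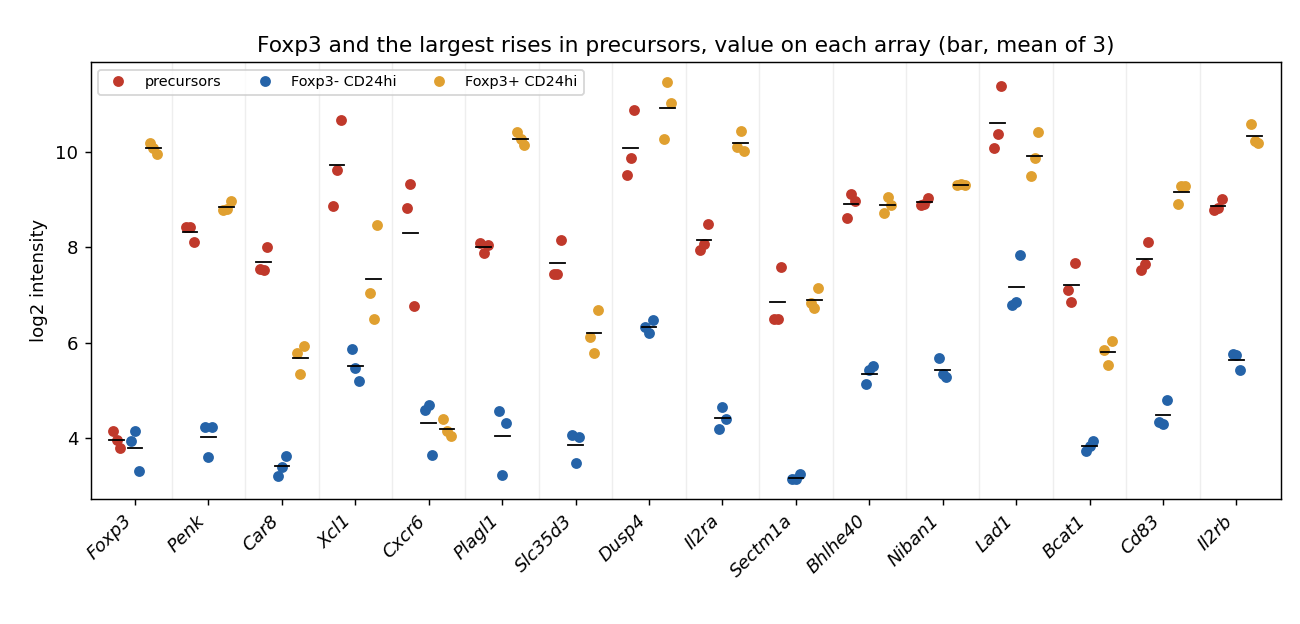
Log2 intensity of Foxp3 and the 15 genes with the largest rises on each array of precursors (red), Foxp3- CD24hi (blue) and Foxp3+ CD24hi thymocytes (orange); bars are means of 3. Foxp3 overlaps between the first 2 groups, near 4, while for each of the 15 genes every precursor array lies above every Foxp3- CD24hi array.

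Il2rb, the IL-2 receptor chain measured beside the sort gene Il2ra, rose, and so did several STAT5-induced genes. Of 16 measured genes of this pathway, 7 were higher in precursors, 3 lower and 6 did not pass, with a median of 0.55 against -0.01 over all genes. One of the 7 is Il2ra, whose rise the sort fixed, and without it 6 of 15 were higher, with a median of 0.20. Il2rb, the beta chain that IL-2 and IL-15 receptors share, read 8.78, 8.81 and 9.01 against 5.76, 5.74 and 5.44 (3.22 ± 0.18, adjusted p = 7.48e-12). Cish, a feedback inhibitor induced by STAT5, read 9.29, 9.30 and 9.35 against 7.16, 7.16 and 7.35 (2.09 ± 0.13, adjusted p = 4.02e-11). Socs2, another STAT5-induced inhibitor, read 5.95, 5.94 and 5.45 against 3.69, 3.87 and 3.45 (2.11 ± 0.22, adjusted p = 1.81e-07). The 3 arrays of each group lay close together in Cish and far from those of the other group. Lta, which encodes lymphotoxin alpha, rose by 1.90 ± 0.12 (adjusted p = 3.8e-11), and Stat5a, the signal transducer itself, by 0.90 ± 0.12 (adjusted p = 7.56e-06). Stat5b, its close relative, read 10.15 to 10.23 against 10.34 to 10.41 and did not pass (-0.18 ± 0.09, adjusted p = 0.237). Pim1, a kinase gene often named as a STAT5 target, did not pass either (0.13 ± 0.13, adjusted p = 0.727).

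The members that fell were Bcl2, Jak1 and Pim2. Bcl2, the survival factor, read 10.19, 9.97 and 10.03 in precursors and 10.93, 10.75 and 10.73 in Foxp3- CD24hi cells (-0.74 ± 0.14, adjusted p = 0.00083). Jak1, a kinase of cytokine receptors, fell by 0.59 ± 0.13 on the log2 scale (adjusted p = 0.00244), with the lowest value, 11.26, on precursor replicate 3. Pim2, a kinase related to Pim1, fell by 0.48 ± 0.12 (adjusted p = 0.0124), which became 0.0615 without precursor replicate 1. Other members of the BCL-2 family went up. Bcl2l11, which encodes the death-promoting protein BIM, read 10.53, 10.54 and 10.99 against 9.80, 9.70 and 10.05 (0.83 ± 0.16, adjusted p = 0.000926). Bcl2l1, which encodes the survival factor BCL-XL, rose by 0.87 ± 0.15 (adjusted p = 0.000189), and Bid, a death-promoting member, by 0.92 ± 0.15 (adjusted p = 0.000128). Of 14 measured genes of the BCL-2 family and death pathways 3 were thus higher and 1 lower, a count of higher genes that was 5 with the block. Mcl1, a survival factor, was the brightest that did not pass (0.00 ± 0.10, adjusted p = 0.996).

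Most genes of a Treg signature list were higher in precursors although Foxp3 was not. Of 26 measured, 21 were higher, 2 lower and 3 did not pass, and the median was 2.42. Il2ra, on which the cells were sorted, is among the 21, and without it 20 of 25 were higher, with a median of 2.11. The list was written with earlier results of these samples known, and its count is no independent evidence. Ikzf2, which encodes the transcription factor Helios, read 12.54, 12.24 and 12.32 against 9.39, 9.21 and 9.78 (2.91 ± 0.17, adjusted p = 1.44e-11). Ctla4, the inhibitory receptor, read 9.21, 9.57 and 8.81 against 6.52, 6.76 and 5.43 (2.96 ± 0.32, adjusted p = 3.39e-07). Nrp1, a semaphorin receptor common on thymic Tregs, read 8.30, 8.08 and 7.58 against 5.44, 4.88 and 5.47 (2.72 ± 0.23, adjusted p = 5.97e-09). For all 3 the arrays of the groups were far apart. Ikzf4, which encodes Eos, a partner of Foxp3, rose by 1.69 ± 0.12 (adjusted p = 2.61e-10). Itgb8, an integrin chain that activates TGF-beta, rose from 2.44 to 2.60 on the Foxp3- CD24hi arrays to 4.99 to 5.62 in precursors (2.87 ± 0.18, adjusted p = 3.68e-11). Itgae, which encodes CD103, rose by 2.82 ± 0.42 (adjusted p = 4.39e-05), with 8.88 and 9.11 on precursor arrays 1 and 2 and 7.17 on array 3.

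The 2 members that fell were Izumo1r and Gpr83. Izumo1r, which encodes folate receptor 4, read 8.70, 8.29 and 8.52 in precursors and 9.57, 9.32 and 9.60 in Foxp3- CD24hi cells (-0.99 ± 0.16, adjusted p = 0.00014). Gpr83, a G protein-coupled receptor, read 9.21, 9.14 and 9.01 against 9.80, 9.73 and 10.00 (-0.72 ± 0.20, adjusted p = 0.0226). Its call was lost when any of 4 arrays was left out, with an adjusted p of 0.0972 without precursor replicate 3 and 0.0947 without the liver-bearing array. Both genes were higher in Foxp3+ CD24hi cells than in precursors, Izumo1r by 1.38 ± 0.16 and Gpr83 by 2.72 ± 0.20. Klrg1, a receptor of differentiated cells, lay between 4.63 and 5.14 on all 6 arrays and did not pass.

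Receptors of the TNF family activate the NF-kB pathway, as does the T cell receptor. Among 12 measured TNF receptor family genes 5 were higher and 1 lower, with a median of 0.36. Tnfrsf9, which encodes 4-1BB, read 10.34, 10.27 and 11.16 against 7.57, 7.39 and 8.29 (2.84 ± 0.27, adjusted p = 5.56e-08). Tnfrsf1b, which encodes TNF receptor type II, read 9.39, 9.38 and 9.87 against 7.56, 7.20 and 7.50 (2.13 ± 0.16, adjusted p = 6.83e-10). Its other, dimmer probe set differed by 0.61. Tnfrsf4, which encodes OX40, rose by 2.02 ± 0.18 (adjusted p = 1.3e-08) to between 11.43 and 12.04. Tnfrsf18, which encodes GITR, rose by 1.33 ± 0.14 (adjusted p = 3.03e-07) and Tnfrsf25 by 1.72 ± 0.15 (adjusted p = 1.32e-08). The member that fell was Tnfrsf1a, which encodes the broadly expressed TNF receptor type I, at 7.77 to 8.29 against 8.73 to 8.92 (-0.75 ± 0.15, adjusted p = 0.00134). Cd27 did not pass (0.06 ± 0.11, adjusted p = 0.89).

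Of 16 measured NF-kB subunits, inhibitors and adaptors 7 were higher and 1 lower, with a median of 0.31. Rel, the subunit c-Rel, read 8.19, 8.54 and 8.63 against 7.46, 7.56 and 7.59 (0.91 ± 0.17, adjusted p = 0.000767). Nfkbie, an inhibitor of the IkB family, read 9.30, 9.27 and 9.50 against 7.98, 8.09 and 8.01 (1.33 ± 0.10, adjusted p = 1.08e-09). Bcl3, an atypical nuclear IkB, rose by 1.17 ± 0.12 (adjusted p = 1.13e-07) and Relb, a subunit of the alternative pathway, by 0.68 ± 0.11 (adjusted p = 9.2e-05). Each had all precursor arrays above all others. Nfkbia, the most abundant inhibitor, read 12.89 to 13.06 against 12.75 to 12.85 and did not pass (0.19 ± 0.11, adjusted p = 0.381). Malt1, an adaptor between the T cell receptor and NF-kB, fell by 0.88 ± 0.20 (adjusted p = 0.00516), which became 0.0598 without replicate 1 of Foxp3- CD24hi.

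Since several genes of both lists rose, the 250 bases before their starts were read for the letters of a classical NF-kB site (GGGA, then 4 bases of any kind, then CC, on either strand) in RefSeq promoters of GRCm38.p6. Of the genes that rose, Rel, Tnfrsf9 and the sort gene Il2ra are shown because they hold a match. The match is in capitals, and each window is read 5′ to 3′ towards its start. Il2ra is on neither list and is not part of the list counts below. The Il2ra window is chr2:11642542-11642791 on the plus strand, with the match from -201 to -192. That of Rel is chr11:23770970-23771219 on the minus strand, with the match from -92 to -83. That of Tnfrsf9, at the more downstream of its 2 listed starts, is chr4:150927749-150927998 on the plus strand, with the match from -42 to -33.
Il2ra: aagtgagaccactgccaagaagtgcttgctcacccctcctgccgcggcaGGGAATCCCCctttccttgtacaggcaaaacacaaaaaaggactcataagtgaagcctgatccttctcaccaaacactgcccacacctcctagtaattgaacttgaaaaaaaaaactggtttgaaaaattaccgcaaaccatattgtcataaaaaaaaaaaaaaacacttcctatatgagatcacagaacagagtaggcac
Rel: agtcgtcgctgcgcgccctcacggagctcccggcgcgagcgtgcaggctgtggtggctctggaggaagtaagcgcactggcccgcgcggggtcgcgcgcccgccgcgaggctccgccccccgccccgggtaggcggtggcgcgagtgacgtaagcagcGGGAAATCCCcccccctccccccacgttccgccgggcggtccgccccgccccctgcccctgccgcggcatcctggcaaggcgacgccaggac
Tnfrsf9: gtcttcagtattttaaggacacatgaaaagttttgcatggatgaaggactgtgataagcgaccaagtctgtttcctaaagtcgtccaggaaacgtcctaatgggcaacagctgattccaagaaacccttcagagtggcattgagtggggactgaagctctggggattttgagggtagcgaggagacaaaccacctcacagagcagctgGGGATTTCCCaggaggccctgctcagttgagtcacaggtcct
A match was held by 4 of 13 windows of genes on the NF-kB and TNF receptor lists that rose (30.8%). It was held by 10 of 17 windows of their other measured members (58.8%) and by 5793 of 32851 windows of all genes (17.6%). The letters were thus not more frequent at genes that rose than at listed genes that did not. A match is a description of the window and not evidence of binding.

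Genes induced through the T cell receptor did not move as one group. Of 22 measured, 10 were higher, 2 lower and 10 did not pass, with a median of 0.33. With the block 4 were lower. The nuclear receptor genes Nr4a3 and Nr4a1 were higher. Nr4a3 read 11.21, 11.05 and 11.50 against 9.79, 9.80 and 9.95 (1.41 ± 0.13, adjusted p = 2.76e-08), and Nr4a1, which encodes Nur77, rose by 0.62 ± 0.15 (adjusted p = 0.00813). Other probe sets of Nr4a3, both dimmer, differed by 0.91 and 0.06. The early growth response factors Egr1 and Egr2 were lower. Egr1 read 10.75, 10.90 and 10.65 in precursors and 11.81, 11.89 and 11.99 in Foxp3- CD24hi cells (-1.13 ± 0.16, adjusted p = 1.32e-05). Egr2 read 8.30, 8.23 and 8.07 against 9.44, 9.25 and 9.28 (-1.12 ± 0.16, adjusted p = 1.91e-05). Neither Egr gene overlapped between the groups. Cd5, a surface inhibitor whose level follows receptor signal strength, read 11.69 to 12.00 against 11.84 to 12.27 and did not pass (-0.14 ± 0.12, adjusted p = 0.641).

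Feedback regulators of the ERK kinases and phosphatases of receptor signalling were likewise split, with 6 higher and 2 lower of 19 measured and a median of 0.06. Spry1, an inhibitor of receptor signalling to ERK, rose from 5.13, 5.58 and 6.14 to 7.29, 7.47 and 7.74 (1.88 ± 0.21, adjusted p = 8.82e-07). Ptpn22, a phosphatase that restrains receptor signalling, rose by 0.84 ± 0.12 (adjusted p = 2.72e-05). Dusp10, a phosphatase for the JNK and p38 kinases, fell from 10.79, 10.74 and 10.56 to 9.91, 9.99 and 9.85 (-0.78 ± 0.12, adjusted p = 6.06e-05). Spred2, a relative of Spry1, fell by 0.65 ± 0.18 (adjusted p = 0.0196), a call lost without either of precursor replicates 1 and 2 and without the liver-bearing array (0.0775). Dusp6, an ERK phosphatase, read 8.92, 9.45 and 9.69 against 9.87, 10.26 and 10.53 and did not pass (-0.86 ± 0.39, adjusted p = 0.217). Replicate 1 was its lowest array on both sides, and with the block its adjusted p was 0.000149. The count of lower genes in this list was 5 with the block.

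Cytokine genes were more often higher than lower, with 11 up and 2 down of 22 measured and a median of 0.73. Besides Xcl1 and Lta these included Ifng, which encodes interferon gamma and read 6.69, 7.19 and 5.92 against 3.93, 3.99 and 3.43 (2.82 ± 0.44, adjusted p = 6.85e-05). Il2, the T cell growth factor, read 4.83, 5.34 and 4.13 in precursors and 3.12, 3.26 and 3.22 in Foxp3- CD24hi cells (1.57 ± 0.22, adjusted p = 1.9e-05). Il4, the type 2 helper cytokine, read 5.65, 5.62 and 4.34 against 3.84, 3.74 and 3.48 (1.52 ± 0.38, adjusted p = 0.00899). For these 3 genes precursor replicate 3 was the lowest of its group, and without precursor replicate 2 the adjusted p of Il4 was 0.0606. It was also not past the threshold without precursor replicate 1. Tnfsf14, which encodes LIGHT, rose by 1.91 ± 0.23 (adjusted p = 2.03e-06) and was highest, at 6.45, on precursor replicate 3. Il21 fell from 6.59, 5.97 and 6.10 to 5.51, 4.95 and 4.82 (-1.13 ± 0.22, adjusted p = 0.00088). Tnf fell by 0.58 ± 0.15 (adjusted p = 0.0137), a call lost without precursor replicate 1 (0.0944) or without the liver-bearing array (0.0937). With dim genes left out of the test, the count of rises was 6.

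Of 12 measured chemokine receptor genes 4 were higher and 2 lower, with a median of 0.38. The higher count was 3 with any 1 array left out and 2 with a pseudocount of 16. The lower count was 1 with dim genes left out. Ccr6, the receptor for CCL20, read 8.41, 8.01 and 8.56 against 4.97, 5.02 and 5.43 (3.19 ± 0.18, adjusted p = 7.48e-12). Cxcr6, the receptor for CXCL16, read 8.81, 9.32 and 6.77 against 4.59, 4.69 and 3.66 (3.99 ± 0.50, adjusted p = 3.55e-06). Ccr6 was even over the precursor arrays, whereas Cxcr6 differed by more than 2 log2 units between them. Ccr9, which holds immature cells in the thymic cortex and guides cells to the gut, fell from 12.83, 12.33 and 12.49 to 11.49, 11.19 and 10.75 (-1.41 ± 0.16, adjusted p = 8.47e-07). Ccr4, a receptor of newly selected thymocytes, fell by 0.92 ± 0.15 (adjusted p = 0.000153). Ccr7, the receptor that draws selected thymocytes into the medulla, read 11.06, 11.47 and 11.21 against 10.82, 11.11 and 10.76 and did not pass (0.35 ± 0.15, adjusted p = 0.207).

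Among 15 costimulatory and inhibitory receptors 6 were higher and 3 lower, with a median of 0.06. Pdcd1, which encodes the inhibitory receptor PD-1, read 8.74, 8.60 and 8.93 against 7.08, 6.86 and 7.17 (1.72 ± 0.21, adjusted p = 2.95e-06). Cd200, the ligand of an inhibitory receptor, rose by 1.53 ± 0.18 (adjusted p = 1.37e-06). Cd84, an adhesion receptor of the SLAM family, fell from between 7.46 and 7.56 to between 6.54 and 6.84 (-0.80 ± 0.13, adjusted p = 0.000154), though not when all its probe sets were averaged. Cd28, the main costimulatory receptor, did not pass (-0.26 ± 0.12, adjusted p = 0.235).

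Genes of the immature, double-positive stage went both ways, with 5 of 21 higher and 6 lower and a median of -0.06. The recombination machinery was among those higher. Rag1, a subunit of the recombinase that assembles receptor genes, read 9.24, 9.59 and 8.09 in precursors and 6.82, 6.58 and 6.91 in Foxp3- CD24hi cells (2.21 ± 0.25, adjusted p = 1.11e-06). Over the 9 groups its mean was highest in precursors, at 8.97 ± 0.78 (SD, n = 3), followed by 6.77 ± 0.17 in Foxp3- CD24hi cells, and it was 4.20 ± 0.09 or lower in the other 7. Ptcra, the surrogate alpha chain of the early receptor, read 7.60, 7.47 and 5.86 against 5.31, 5.18 and 5.21 (1.75 ± 0.32, adjusted p = 0.000418). Arpp21, a thymocyte-rich phosphoprotein gene, read 8.79, 7.74 and 6.58 against 6.35, 5.86 and 5.77 (1.71 ± 0.30, adjusted p = 0.0003). Its other probe sets, all dimmer, differed by 0.03 to 1.09. Dntt, the enzyme that adds bases at receptor gene joints, read 10.37, 9.65 and 8.26 against 8.35, 7.92 and 8.11, and the groups overlapped (1.30 ± 0.31, adjusted p = 0.00709). Rag2, the other recombinase subunit, read 5.11, 4.81 and 3.88 against 3.76, 3.85 and 4.01 and also overlapped (0.73 ± 0.21, adjusted p = 0.0261).

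In each of these 5 genes precursor replicate 3 was the lowest precursor array. Without precursor replicate 1 the adjusted p of Dntt was 0.0758 and that of Rag2 0.199, and the count of higher genes in the list was 3. Rag2 was also lost without precursor replicate 2 and without replicate 1 or 2 of Foxp3- CD24hi. A fit of the compared groups alone counted 2 higher genes, and one with dim genes left out of the test 1. The coreceptor gene Cd8b1, which double-positive cells express, read 7.87 to 8.16 against 8.21 to 8.52 and did not pass (-0.33 ± 0.30, adjusted p = 0.667). The members that fell included Chl1, a cell adhesion molecule, from 8.56, 8.03 and 8.18 to 6.88, 6.40 and 6.25 (-1.75 ± 0.26, adjusted p = 3.31e-05). Plxnd1, a semaphorin receptor, fell by 1.21 ± 0.19 (adjusted p = 5.74e-05). Satb1, a chromatin organiser abundant in thymocytes, read 13.24, 12.98 and 12.57 against 13.62 to 13.70 (-0.72 ± 0.12, adjusted p = 0.00014).

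Of 18 measured genes of mature thymocytes and thymic egress 0 were higher and 4 lower by limma, with a median of -0.19. Under several alternatives, among them the replicate block, quantile normalization and leaving out precursor replicate 2, 1 was higher. The lower count was 2 for the compared groups alone, without precursor replicate 3 and without replicate 1 of Foxp3- CD24hi. Gimap4, a GTPase of the lymphocyte survival family, read 12.22, 12.23 and 11.88 against 13.20, 12.89 and 12.77 (-0.84 ± 0.12, adjusted p = 1.24e-05), and Gimap6 fell by 0.79 ± 0.14 (adjusted p = 0.000202). Il7r, the IL-7 receptor chain, read 11.22, 11.11 and 9.13 against 12.06, 11.70 and 11.68 (-1.33 ± 0.34, adjusted p = 0.0122). Without precursor replicate 3, its lowest array, the Il7r difference was -0.65 with an adjusted p of 0.109. The call was also lost without replicate 1 of Foxp3- CD24hi, and the count of lower genes in the list was 2 in both cases. The egress genes Klf2 (-0.39 ± 0.32, adjusted p = 0.615) and S1pr1 (-0.15 ± 0.23, adjusted p = 0.852) did not pass.

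Transcription factors of CD4 lineage and thymocyte development were mostly lower where they moved, with 2 higher and 7 lower of 20 measured and a median of -0.29. Lef1, a partner of beta-catenin in T cell development, read 11.40, 11.44 and 11.06 against 12.41, 12.24 and 12.27 (-1.01 ± 0.12, adjusted p = 3e-06). Zbtb7b, which encodes the CD4 lineage factor ThPOK, read 7.84, 7.72 and 7.51 against 8.62, 8.28 and 8.61 (-0.81 ± 0.12, adjusted p = 5.38e-05). Runx1 fell by 0.74 ± 0.12 (adjusted p = 0.000165) and Tox2, a relative of the thymic selection factor Tox, by 1.08 ± 0.22 (adjusted p = 0.00157). Myb, a factor of immature lymphocytes, went the other way, from 9.36, 9.07 and 9.13 to 10.97, 10.53 and 10.34 (1.43 ± 0.17, adjusted p = 2.16e-06). Ikzf3, which encodes Aiolos, rose by 0.87 ± 0.12 (adjusted p = 8.1e-06). Without precursor replicate 3 the count of lower factors was 4.

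Markers of natural killer, natural killer T and innate-like T cells moved with the precursor group. Of 11 measured 8 were higher and 0 lower, with a median of 1.79. The count was 4 with dim genes left out of the test, 6 in a fit of the compared groups alone and no lower than 6 without any 1 array. The mean level of the list was 6.37, 6.59 and 5.58 on the precursor arrays and 4.63, 4.71 and 4.29 on the Foxp3- CD24hi arrays. Zbtb16, which encodes PLZF, the factor of innate-like T cells, read 7.46, 7.79 and 5.65 against 5.47, 5.44 and 4.63 (1.79 ± 0.39, adjusted p = 0.00292). Tbx21, which encodes T-bet, read 5.90, 6.20 and 5.59 against 3.53, 3.95 and 3.85 (2.12 ± 0.26, adjusted p = 2.14e-06). Klrd1, which encodes CD94, read 5.75, 6.26 and 4.92 against 3.90, 3.49 and 2.95 and rose by 2.20 ± 0.39 (adjusted p = 0.000318), and Nkg7, a granule protein gene of killer cells, by 2.57 ± 0.37 (adjusted p = 2.17e-05). Eomes, a factor of killer and CD8 memory cells, read 5.64 to 5.79 against 5.29 to 5.96 and did not pass (0.01 ± 0.18, adjusted p = 0.991). The list shares Il4 with the cytokines, Cxcr6 with the chemokine receptors and Nkg7 with the CD8 markers, and conventional activated T cells also express Tbx21 and Nkg7.

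Markers of gamma delta T cells moved the same way, with 4 of 6 measured higher, 0 lower and a median of 1.36. Trgv4, a variable segment of the gamma chain, read 9.46, 9.70 and 7.57 against 6.92, 6.91 and 6.46 (2.15 ± 0.41, adjusted p = 0.000732). Trgv1, another segment, read 9.40, 9.39 and 7.13 against 6.94, 6.95 and 6.22 (1.94 ± 0.46, adjusted p = 0.006). Blk, a kinase of B cells and of gamma delta T cells that make IL-17, read 6.87, 7.28 and 4.50 against 4.50, 4.00 and 4.44 (1.90 ± 0.42, adjusted p = 0.00328). On precursor replicate 3 Blk was thus level with the highest Foxp3- CD24hi array. The list's mean level was 7.13, 7.47 and 5.77 in precursors and 5.43 to 5.54 in Foxp3- CD24hi cells. With 1 array left out the count was 2 to 6. Without precursor replicate 2 it was 2 and the adjusted p of Trgv1 was 0.0568, and Trgv1 was also lost without precursor replicate 1. In a fit of the compared groups alone the count was 1.

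Precursor replicate 3 was therefore the lowest precursor array for the recombination genes, Cxcr6, Il4, Ifng, Zbtb16, Klrd1 and the gamma delta markers, though Nkg7 was highest there, at 8.58. Of the Treg genes, Itgae, Nrp1, Ctla4, Socs2 and Penk were also lowest on replicate 3, by differing amounts, from 9.11 to 7.17 for Itgae and from 8.43 to 8.12 for Penk. Xcl1, Dusp4, Lad1 and Il2ra were highest on replicate 3. Precursor replicate 3 read 8.09 for Rag1, against 6.58 to 6.91 on the Foxp3- CD24hi arrays. Its mean level was 5.77 for the gamma delta list, against 5.43 to 5.54, and 5.58 for the innate-like list, against 4.29 to 4.71. The part that other T cells in the sort had in the levels of Rag1, Cxcr6, Il4 and Ifng was not tested.

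**Figure D4:**
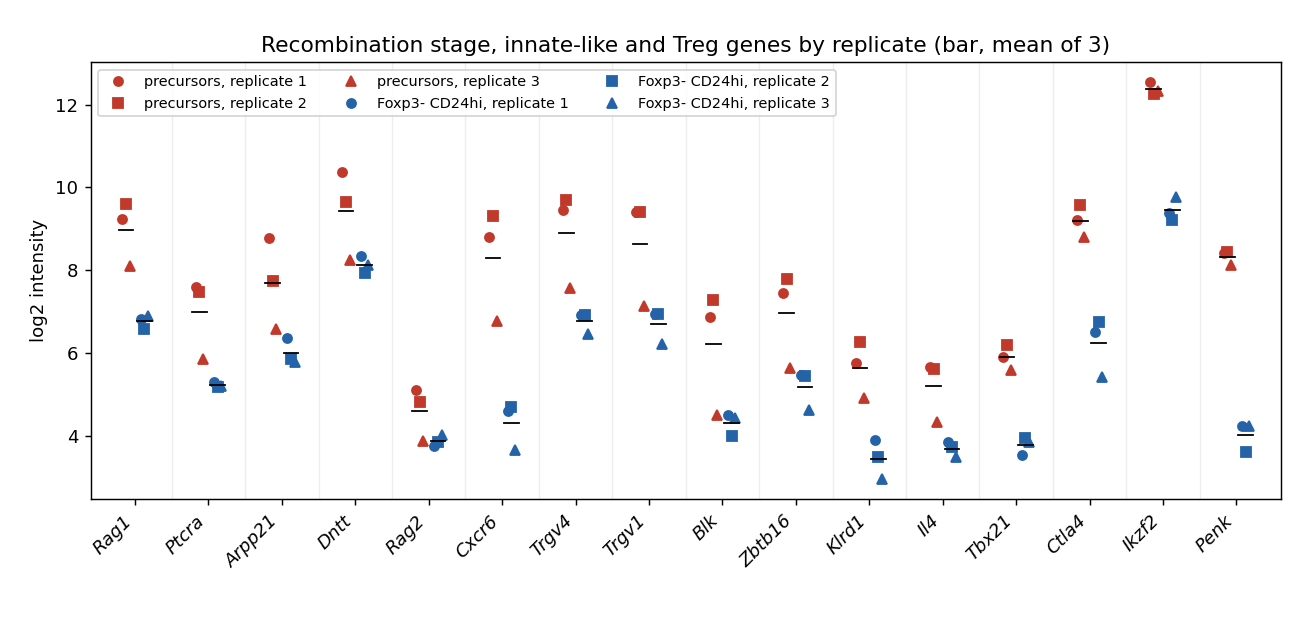
Log2 intensity of recombination, innate-like, gamma delta and Treg genes on each array of precursors (red) and Foxp3- CD24hi thymocytes (blue), with a symbol for each replicate number and bars for means of 3. For Rag1, Ptcra, Arpp21, Cxcr6, Trgv4, Trgv1, Blk and Zbtb16 precursor replicate 3 is the lowest precursor array by at least 1 log2 unit. It is also the lowest for Ctla4 and Penk, by less.

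The largest falls were smaller than the largest rises. Kif23, a mitotic kinesin, read 8.71, 7.33 and 7.17 in precursors and 9.95, 9.49 and 9.74 in Foxp3- CD24hi cells (-1.99 ± 0.41, adjusted p = 0.00181). A second probe set of Kif23 differed by -2.23 and the remaining, dim one by -0.21. Acvrl1, a receptor of the TGF-beta family known from blood vessels, read 5.12, 4.98 and 5.43 against 7.05, 7.11 and 7.24 (-1.96 ± 0.29, adjusted p = 3.7e-05). Ampd1, an adenosine monophosphate deaminase, read 6.29, 6.13 and 5.94 against 8.42, 7.93 and 7.63 (-1.87 ± 0.25, adjusted p = 9.22e-06). In none of the 3 did the groups overlap.

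Itgb3, an integrin beta chain, read 7.78, 8.15 and 6.98 in precursors and 9.29, 9.66 and 9.35 in Foxp3- CD24hi cells (-1.80 ± 0.20, adjusted p = 5.22e-07). Etv5, a transcription factor of the ETS family, read 5.70, 5.32 and 5.42 against 7.12, 6.91 and 7.29 (-1.63 ± 0.28, adjusted p = 0.000207). Mmp9, a matrix metalloproteinase, read 4.68, 4.75 and 4.68 against 6.03, 6.51 and 6.16 (-1.53 ± 0.12, adjusted p = 8.13e-10). The precursor arrays of Mmp9 were nearly equal. The other large falls were in Rap1gap2 (-1.75), a GTPase-activating protein for Rap1, and F13a1 (-1.64), the A chain of coagulation factor XIII. They were also in Mn1 (-1.59), Chdh (-1.59), which encodes choline dehydrogenase, Spef2 (-1.56), Tmem35a (-1.54) and Cap2 (-1.52), an actin-binding protein gene. These and Chl1 were among the 15 largest falls, each of which passed with any single array left out. Among 14 integrin subunits 3 were higher and 1, Itgb3, lower, and 2 were lower with the block. Besides Itgb8 and Itgae, the higher ones included Itgav, which rose by 0.42 ± 0.12 (adjusted p = 0.0295), a call lost when any of 4 arrays was left out (up to 0.126, without replicate 2 of Foxp3- CD24hi).

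Interferon response genes were lower or did not pass, with 0 higher and 8 lower of 18 measured and a median of -0.31. Gbp2, a guanylate-binding protein, read 9.32, 9.59 and 9.27 against 10.39, 10.15 and 10.19 (-0.85 ± 0.12, adjusted p = 1.39e-05). Oas2, an antiviral oligoadenylate synthetase, read 7.96, 7.84 and 7.27 against 8.92, 9.18 and 8.50 (-1.18 ± 0.20, adjusted p = 0.000222). Both had every precursor array below every other array. Ifi35 was the brightest that did not pass (-0.10 ± 0.11, adjusted p = 0.746). The count of lower genes depended on single arrays. It was 5 for the compared groups alone, 4 without precursor replicate 2, 3 without precursor replicate 3 and 4 without replicate 1 of Foxp3- CD24hi. Over all genes the lower count in these fits was 389, 555, 502 and 583, against 733 in the main fit.

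Genes of sterol and fatty acid synthesis were higher or did not pass, with 5 of 15 higher, 0 lower and a median of 0.26. Acaca, the enzyme of the committed step of fatty acid synthesis, read 8.24, 7.71 and 7.98 against 6.90, 6.53 and 6.62 (1.30 ± 0.16, adjusted p = 2.85e-06). Idi1, an isomerase of the sterol pathway, rose by 1.26 ± 0.28 (adjusted p = 0.00284), Sqle, squalene epoxidase, by 1.00 ± 0.22 (adjusted p = 0.00308) and Cyp51, a sterol demethylase, by 0.96 ± 0.21 (adjusted p = 0.00296). Insig1, a sterol-sensing regulator, rose by 0.96 ± 0.23 (adjusted p = 0.00596), which became 0.0579 without precursor replicate 3. Scd1, a desaturase abundant in liver, read 8.15 on the liver-bearing array and 3.15 to 3.71 on the 5 others, and did not pass (-1.48 ± 0.70, adjusted p = 0.244). Without that array its difference was 0.15.

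Of 14 measured glycolysis genes 3 were higher and 1 lower, with a median of 0.10. With the block 6 were higher, and with quantile normalization 5. Over all genes these fits counted 1425 and 936 higher, against 925 in the main fit. Hk2, an inducible hexokinase, read 6.82, 6.86 and 7.09 against 5.97, 5.82 and 6.01 (0.99 ± 0.11, adjusted p = 3.29e-07). Tpi1, triosephosphate isomerase, rose by 1.25 ± 0.19 (adjusted p = 5.88e-05). Slc2a3, which encodes the glucose transporter GLUT3, fell from 10.50, 10.66 and 10.81 to 9.66, 9.68 and 9.88 (-0.92 ± 0.12, adjusted p = 6.84e-06). Gapdh, often used as a reference gene, read 12.70, 12.53 and 12.85 against 12.20, 12.28 and 12.49. It did not pass (0.37 ± 0.13, adjusted p = 0.0759), but did with the block (0.0109).

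Among 15 genes of cyclic AMP signalling 2 were higher and 1 lower, with a median of -0.26. With the block 3 were higher and 3 lower, and with dim genes left out 2 were lower. Ptger2, a receptor for prostaglandin E2, read 5.88, 6.08 and 6.50 against 3.64, 3.43 and 4.48 (2.30 ± 0.24, adjusted p = 1.92e-07). Ptger4, another such receptor, rose by 0.84 ± 0.10 (adjusted p = 2.78e-06). Vipr1, a receptor for vasoactive intestinal peptide, fell by 1.44 ± 0.26 (adjusted p = 0.000321).

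Cell cycle genes did not separate the groups, with 1 of 24 higher and 0 lower and a median of 0.21. Their mean level was 9.58, 8.62 and 8.39 in precursors and 9.04, 8.42 and 8.42 in Foxp3- CD24hi cells, so replicate 1 was the highest array on both sides. The gene that passed was Mcm6, a replication helicase subunit (0.71 ± 0.20, adjusted p = 0.0261), which did not without precursor replicate 1 (0.157), without replicate 2 of Foxp3- CD24hi or without the liver-bearing array. With the block 3 were higher. Of 13 genes of DNA methylation and demethylation 2 were higher and 3 lower, counts that single arrays decided. With any 1 array left out the lower count was 1 or 2, and it was 1 without precursor replicate 2. The higher count was 1 without precursor replicate 3 or without replicate 2 of Foxp3- CD24hi, and both counts were 1 for the compared groups alone. Tet2, a 5-methylcytosine dioxygenase, rose from 8.67, 8.82 and 8.96 to 9.75, 9.63 and 9.58 (0.83 ± 0.20, adjusted p = 0.00644). Tet1, of the same family, fell from 8.64, 8.60 and 8.80 to 7.95, 7.64 and 7.63 (-0.94 ± 0.19, adjusted p = 0.00118). The opposite moves of Tet2 and Tet1 were each free of overlap between the groups. The methyltransferase gene Dnmt3a (0.38 ± 0.10, adjusted p = 0.0133) did not pass without precursor replicate 3 (0.0871). Mbd2, which encodes a reader of methylated DNA (-0.36 ± 0.11, adjusted p = 0.0297), did not without replicate 1 of Foxp3- CD24hi (0.182), nor Gadd45a (-0.76 ± 0.24, adjusted p = 0.0446) without precursor replicate 1 (0.24). Leaving out 1 of the 6 arrays ended the call of Dnmt3a for 2 of them, of Mbd2 for 3 and of Gadd45a for 4. Dnmt1, the maintenance methyltransferase, did not pass (-0.07 ± 0.22, adjusted p = 0.94). Of 14 dissociation stress genes 1, Hsp90aa1, was higher, and not without precursor replicate 1 (adjusted p = 0.014 with all arrays and 0.0768 without it).

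Markers of other cells the sorts could hold were mostly level. For B cells 0 of 8 passed in limma, for thymic epithelium 0 of 9, of which Ly75 passed with the block (adjusted p = 0.0362), and for erythroid cells 0 of 4. Of 14 markers of antigen-presenting cells 1 passed, Ccr9, which thymocytes express themselves. H2-Ab1, an MHC class II gene, read 8.01, 7.62 and 7.31 against 7.30, 7.22 and 7.13 and did not pass (0.43 ± 0.24, adjusted p = 0.364). Without precursor replicate 3, 2 of these 14 were higher. Of 6 CD8 T cell markers 2 were higher, Nkg7 and Cst7, both of cytotoxic granules, and 0 were lower. Cst7, which encodes cystatin F, read 7.15, 7.47 and 6.71 against 4.76, 4.48 and 4.48 (2.53 ± 0.22, adjusted p = 9.34e-09).

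**Figure D5:**
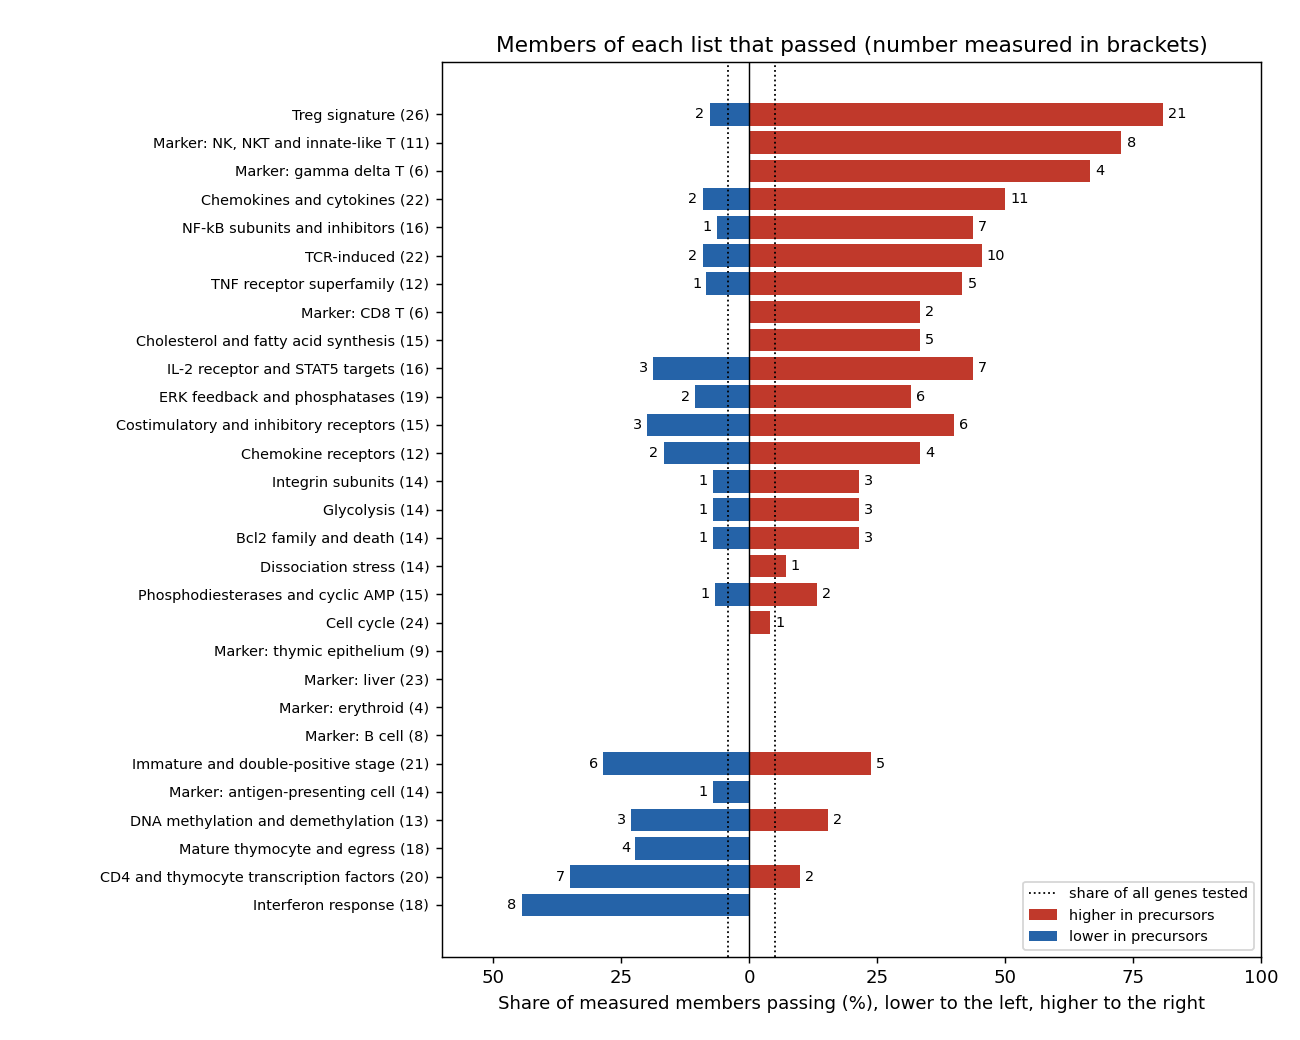
Share of the measured members of each gene list that passed at an adjusted p under 0.05, higher in precursors to the right and lower to the left, with the number of genes beside each bar and the number measured in brackets. Dotted lines mark the shares over all genes, 5.08% higher and 4.03% lower; the Treg signature (21 of 26) and the innate-like markers (8 of 11) reach furthest to the right, and the interferon response (8 of 18) furthest to the left.

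The Foxp3+ CD24hi thymocytes, the youngest Foxp3+ group, give a scale for these levels. Of all genes 6.77% were higher and 9.27% lower in Foxp3+ CD24hi cells than in precursors. This second comparison shares the precursor arrays with the first, so the values are only placed side by side. Of the 26 Treg signature genes 19 were higher in Foxp3+ CD24hi cells than in precursors and 0 lower. Foxp3 was higher by 6.10 ± 0.17 (adjusted p = 2.62e-18), Il2ra by 2.02 ± 0.20, Plagl1 by 2.26 ± 0.23, Socs2 by 2.95 ± 0.22 and Ctla4 by 1.89 ± 0.32. For Penk (0.53 ± 0.24, adjusted p = 0.156), Ikzf2 (0.30 ± 0.17, adjusted p = 0.281), Bhlhe40 (-0.01 ± 0.22, adjusted p = 0.988) and Tnfrsf9 (-0.26 ± 0.27, adjusted p = 0.627) the difference did not pass. Pim1, level between precursors and Foxp3- CD24hi cells, was higher by 2.50 ± 0.13 (adjusted p = 4.15e-12).

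Other genes that rose in precursors were lower in Foxp3+ CD24hi cells. Car8 read 5.79, 5.35 and 5.92 there, 2.01 ± 0.20 below precursors (adjusted p = 1.03e-07), and Xcl1 7.03, 6.49 and 8.45, lower than precursors by 2.39 ± 0.46 (adjusted p = 0.000617). Cxcr6 read 4.40, 4.15 and 4.05, within the range of Foxp3- CD24hi cells and lower than precursors by 4.10 ± 0.50 (adjusted p = 1.81e-06). Rag1 read 4.18, 4.29 and 4.12, below both other groups and lower than precursors by 4.78 ± 0.25 (adjusted p = 4.15e-12). Of the 21 genes of the immature stage 11 were lower in Foxp3+ CD24hi cells and 0 higher, and of the 18 mature and egress genes 12 were higher and 0 lower. The 11 innate-like markers were lower in 7 cases and higher in 1, and 5 of the 6 gamma delta markers were lower. Over the 9 groups Xcl1 was highest in precursors, at 9.72 ± 0.90 (SD, n = 3), next to Foxp3- CD24lo thymocytes at 9.40 ± 0.33, values that lay within their spread. Car8 was highest in precursors, at 7.69 ± 0.28, and read 3.14 ± 0.12 to 3.42 ± 0.21 in the Foxp3- groups and both lymph node groups. Penk was at 8.32 ± 0.18 in precursors and at 8.85 ± 0.11 to 10.10 ± 0.40 in the Foxp3+ thymocytes and lymph node Tregs.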

How the data were processed

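Messenger RNA of 27 samples was measured on Affymetrix 3' arrays from 50 ng of RNA, per the labels. The deposited values are linear intensities that the authors made with RMA, per the labels, which adjusts background, scales arrays to each other and combines probes; its version and settings are not given in the sources used here. Values were taken to log2 with no added constant. Of 45101 probe sets 34958 had a single gene symbol, 932 several and 9211 none, and the brightest single-symbol probe set per gene, by the mean over the 27 arrays, gave 18194 genes, of which 9012 had several. Symbols were checked against RefSeq GRCm38.p6, used for names and promoters, and 0 changed.

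limma 3.58.1 in R 4.3.3 fitted 9 group means to all 27 arrays (prior degrees of freedom 5.98), with two-sided p-values adjusted by Benjamini-Hochberg over all genes. No label ties a replicate to an animal, so p-values reflect the spread of these samples, which may be technical. Groups came from the labels and replicate numbers from the first digit of each description code, whose meaning no label states. Deviations of same-numbered arrays correlated at 0.49, 0.29 and 0.30 across genes, and those of other pairs at -0.33 to 0.04. From the data alone, the numbers were therefore taken to pair the samples in the fits with a replicate block. The main fit did not use this pairing, and the ± values and adjusted p are from it unless another fit is named. The fit was tested on simulated data.

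Named genes were Foxp3, Il2ra, Cd24a, Penk, Xcl1 and Rag1, the 15 largest rises and falls that passed without overlap, up to 3 passing members per direction and the brightest failing member of each list, and the 6 genes with the largest excess on one Foxp3- CD24hi array. Cd4, Nrp1, Ikzf4, Socs2, Cish, Stat5a, Ifng, Il2, Il4, Dntt, Rag2, Zbtb16, Klrd1, Nr4a1, Satb1, Tox2, Rel, Tnfrsf9, Tnfrsf18, Sqle, Insig1, S1pr1, Klf2, Pim1, Dusp6 and Scd1 were named after their values were seen. One of the largest falls is not reported here. The members, lists and tests were chosen with earlier results of these data known.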

Additional observations from a re-analysis of the deposited data

How the results depend on the processing

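Alternatives were a replicate block, the compared groups alone, quantile normalization, the mean of all probe sets, leaving out dim genes, an intensity trend with robust prior, a pseudocount of 16 and leaving out each array. Against 1658 genes changed between precursors and Foxp3- CD24hi cells, the replicate block gave 2671 and the compared groups alone 1001, and leaving out 1 array 1241 to 1551. Against 2917 between Foxp3+ CD24hi cells and precursors these gave 4443, 1804 and 2054 to 3010. The other alternatives stayed within 1.5 times of both counts, as did 2241 with the block and without replicate 3 of Foxp3- CD24hi, chosen after seeing the data. Counting the Treg and IL-2 lists without Il2ra was also chosen then. The compared groups alone leave fewer arrays to estimate the spread. Of 171 named genes 128 passed, 102 of them under every alternative that tested them, and 15 of the other 43 passed under some. Genes left out as dim had no result in that fit, which tested 9097. Where a gene passed in the main fit or in the alternative, 0 changed direction. Some genes that passed in neither did change sign, among them Foxp3, at -0.08 to 0.35 with 1 array left out. The block changed no other call among the named genes than those given with their values, apart from Cd163l1 and Ly75, which passed with it. The 15 largest rises and 15 largest falls passed under every alternative that tested them. Replication limits all calls, and genes near the floor have compressed folds.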
